A study of Mus musculus with 9 samples.

Results

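The transforming growth factor beta (TGF-β) pathway and the myofibroblast were described here through 9 genes: the ligands *Tgfb1*, *Tgfb2* and *Tgfb3*, the receptors *Tgfbr1* and *Tgfbr2*, the inhibitor *Smad7*, the matrix protein gene *Ltbp2*, the smooth muscle actin gene *Acta2* and the fibroblast receptor gene *Pdgfra*. These 9 genes were chosen by name from the 52636 genes of the count table, each was found once, and all 9 passed the filter on low counts. Libraries were set against each other by their measured level of *Vdac2*, so the differences between those sets are given as a description with no test.

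Total RNA from the transmural left ventricle of 16-week-old C57BL6J mice was sequenced in 9 libraries. Libraries 1 to 5 carry the label WT (littermates with either the *Vdac2* flox alleles or Cre alone) and libraries 6 to 9 the label KO (*Vdac2* flox/flox with αMHC-Cre, which acts in cardiac myocytes from development on, so that other cells of the ventricle keep the gene). *Vdac2* encodes a channel of the outer mitochondrial membrane. The study used both sexes, and the labels coincided with sex-linked genes, with the lowest *Xist* level of a library labelled KO at 335 CPM and the highest of one labelled WT at 0.152 CPM, so sex and label cannot be told apart.

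The *Vdac2* level went against the label in several libraries. In CPM (counts per 1000000 of the TMM-scaled library total), *Vdac2* was at 20.2, 21.3, 20.5 and 19.1 in libraries 1, 5, 7 and 9, and at 366, 365, 384 and 421 in libraries 2, 4, 6 and 8. Library 3, labelled WT, stood at 58.5 CPM and was kept apart. The 4 libraries under 100 CPM thus held 2 of each label, as did the 4 over 300 CPM, and the groups of the tests are called labelled WT and labelled KO. The libraries held 27345052 to 44673988 counts, so that a floor of 3 counts was worth 0.0693 to 0.114 CPM depending on the library. Over the 9 libraries the ventricular myosin light chain gene *Myl2* averaged 9071 CPM and the atrial *Myl7* 0.612 CPM. Library 3 also differed in composition: the summed level of 8 cardiomyocyte markers was 10185 CPM there, while the remaining 8 libraries lay between 43807 and 60673 CPM, and its normalization factor was 1.3 beside 0.932 to 1.01.

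TGF-β ligands are secreted in a latent form that is stored in the extracellular matrix and released by integrins, proteases or thrombospondin. The active ligand binds the type II receptor, which recruits and phosphorylates the type I receptor, and this in turn phosphorylates SMAD2 and SMAD3, while SMAD7, itself a target of the pathway, blocks the type I receptor. In the heart, the pathway is known for turning fibroblasts into myofibroblasts, which carry smooth muscle α-actin and deposit collagen.

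Promoter sequence is shown for *Tgfb2*, *Ltbp2* and *Acta2*, the members with the largest ratios between the *Vdac2* sets when the 8 libraries other than library 3 are used. Each run holds the 250 bases before the RefSeq start of transcription (assembly GRCm38.p6), 5′ to 3′ on the gene's strand. Capitals mark CAGAC, the core of SMAD-binding elements, read on both strands (GTCTG on the reverse), in *Tgfb2* and *Ltbp2*. In *Acta2* they mark CArG boxes, the elements bound by serum response factor, with at most 1 base other than A or T in the core.
Tgfb2 promoter, chr1:186705990-186706239, minus strand: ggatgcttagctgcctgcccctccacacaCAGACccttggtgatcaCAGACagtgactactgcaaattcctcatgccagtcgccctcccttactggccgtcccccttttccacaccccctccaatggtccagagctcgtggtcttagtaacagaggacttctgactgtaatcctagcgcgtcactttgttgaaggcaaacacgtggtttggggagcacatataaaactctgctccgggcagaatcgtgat
Ltbp2 promoter, chr12:84876492-84876741, minus strand: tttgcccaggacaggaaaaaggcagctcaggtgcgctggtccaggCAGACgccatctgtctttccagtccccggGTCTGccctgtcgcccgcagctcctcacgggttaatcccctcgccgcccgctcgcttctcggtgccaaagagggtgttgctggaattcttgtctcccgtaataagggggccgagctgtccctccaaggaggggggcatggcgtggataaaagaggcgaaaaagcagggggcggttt
Acta2 promoter, chr19:34255374-34255623, minus strand: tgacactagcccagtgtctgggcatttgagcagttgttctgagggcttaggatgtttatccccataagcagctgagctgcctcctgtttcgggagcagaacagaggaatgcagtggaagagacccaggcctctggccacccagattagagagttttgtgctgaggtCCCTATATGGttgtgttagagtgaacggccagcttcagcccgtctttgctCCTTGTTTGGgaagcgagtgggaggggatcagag
The CAGAC matches began 221 and 204 bases before the start in *Tgfb2* and 205 and 176 bases before it in *Ltbp2*, and the CArG boxes of *Acta2* 84 and 34 bases before it. CAGAC occurred on either strand in 42.2% of all 32851 windows of this length, and a CArG box of this definition in 8.59%. Windows were found for 7 of the 9 members, and the one nearest the annotated start was read. *Tgfb1* and *Tgfbr1* held neither motif, *Tgfbr2* held 1 of each, and *Acta2* and *Pdgfra* each held 1 CAGAC. A match describes the letters of the window and not a bound site.

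Per kilobase of exon, *Acta2* was the most abundant member, with a median of 119.7 CPM per kb over the 8 libraries other than library 3. *Pdgfra* followed at 10.3, *Tgfbr1* at 6.71, *Tgfbr2* at 6.16, *Tgfb3* at 4.06, *Smad7* at 2.11, *Tgfb2* at 1.35, *Tgfb1* at 0.987 and *Ltbp2* at 0.326 CPM per kb. The ranges over the 8 libraries overlapped between *Tgfbr1* and *Tgfbr2*, between *Tgfbr2* and *Tgfb3*, and between *Smad7* and *Tgfb2*, so those neighbours were not separated. Among the ligands, *Tgfb3* was thus above *Tgfb2* and *Tgfb1* in this tissue (3.56 to 5.73 CPM per kb for *Tgfb3*, 1.17 to 2.10 for *Tgfb2* and 0.928 to 1.15 for *Tgfb1*).

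Between the *Vdac2* sets, the mean of each of the 9 members was higher in the libraries under 100 CPM, but no member separated them. The libraries of 0 of 9 members were all higher than, and those of 0 of 9 all lower than, the libraries over 300 CPM. Of the 16322 genes tested, 7.16% were higher without overlap and 4.93% were lower without overlap, so 0 of 9 lies near those shares. The median log2 ratio over the tested genes was 0.0025, and those of the members ran from 0.019 in *Tgfbr1* to 0.89 in *Ltbp2*. In bulk tissue, fewer cells of a type and less RNA per cell cannot be told apart.

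**Figure D1:**
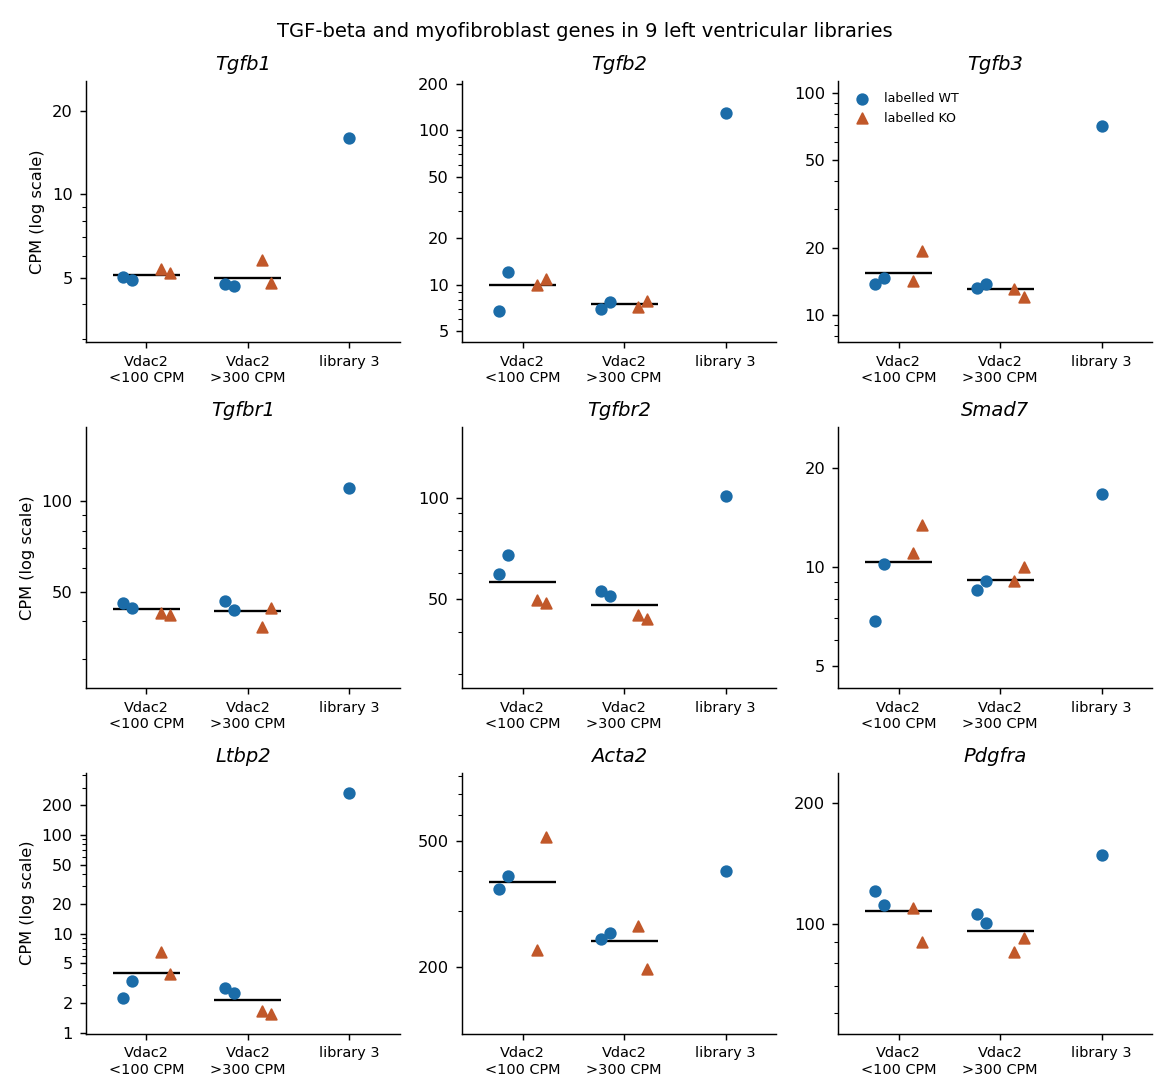
CPM on a log scale for each member, with 1 point per library, circles for labelled WT, triangles for labelled KO and a line at the mean of each Vdac2 set. The points of the 2 sets overlap for each gene, and library 3 lies above the other 8 libraries for the members other than Acta2.

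The ligands overlapped between the sets, with the smallest ratio in *Tgfb1* and the largest in *Tgfb2*. *Tgfb1* (ENSMUSG00000002603, chr7:25687002-25705077, plus strand), the ligand best known from fibrosis, was at 4.92, 5.03, 5.35 and 5.19 CPM in libraries 1, 5, 7 and 9 and at 4.68, 4.76, 5.78 and 4.77 CPM in libraries 2, 4, 6 and 8. Its highest value outside library 3 came from library 6, in the set over 300 CPM, and the means were 5.13 ± 0.187 and 5.0 ± 0.525 CPM (SD, n = 4 each), a log2 ratio of 0.037. Without library 6 the sets did not overlap (beside 8.77% of the genes tested that were then higher without overlap), and the log2 ratio was 0.11. *Tgfb2* (ENSMUSG00000039239, chr1:186622792-186705989, minus strand), a ligand needed for heart valve and septum formation, was at 12.1, 6.80, 9.94 and 10.9 CPM under 100 CPM of *Vdac2* and at 7.79, 7.0, 7.21 and 7.83 CPM over 300 CPM. Libraries 1, 7 and 9 were above the 4 libraries over 300 CPM and library 5 was below them. The means were 9.94 ± 2.28 and 7.46 ± 0.414 CPM, a log2 ratio of 0.41, and without library 5 the sets did not overlap, beside 9.44% of the genes tested. *Tgfb3* (ENSMUSG00000021253, chr12:86056745-86079041, minus strand), the third ligand of the family, was at 14.6, 13.7, 14.2 and 19.4 CPM against 13.7, 13.2, 13.1 and 12.0 CPM in the same order of libraries. The sets met at libraries 5 and 2, and library 9 was the highest of the 8. The means were 15.5 ± 2.64 and 13.0 ± 0.720 CPM, a log2 ratio of 0.25 that was 0.12 without library 9. The ratio was 0.069 within labelled WT and 0.42 within labelled KO. Because libraries 5 and 2 were so close, *Tgfb3* was the 1 member whose libraries did not overlap when upper-quartile factors or plain library totals took the place of the TMM factors, beside 7.73% and 11.3% of the genes tested that were then higher without overlap. Its sets also did not overlap without library 2 (beside 8.77%) or without library 5 (beside 9.44%), as was the case for *Smad7* and *Ltbp2* without library 5.

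The receptors and the inhibitor overlapped between the sets. *Tgfbr1* (ENSMUSG00000007613, chr4:47353222-47414931, plus strand), the type I receptor kinase, was at 44.1, 46.0, 42.5 and 42.0 CPM under 100 CPM of *Vdac2* and at 43.6, 46.5, 38.3 and 44.1 CPM over 300 CPM. The first set lay within the range of the second, with means of 43.7 ± 1.80 and 43.1 ± 3.44 CPM and a log2 ratio of 0.019 that changed sign in 3 of 16 alternatives. *Tgfbr2* (ENSMUSG00000032440, chr9:116084293-116175360, minus strand), the ligand-binding type II receptor kinase, was at 67.9, 59.3, 49.7 and 48.9 CPM against 51.2, 52.8, 44.9 and 43.7 CPM. Within each label, both libraries under 100 CPM were above both libraries over 300 CPM, and the libraries labelled WT were higher than those labelled KO at a like *Vdac2* level. *Tgfbr2* was the 1 member of 9 to be higher without overlap within both labels, beside 11.3% of the genes tested, with log2 ratios of 0.29 within labelled WT and 0.15 within labelled KO. The pooled means were 56.4 ± 8.98 and 48.2 ± 4.53 CPM, a log2 ratio of 0.23 that was 0.13 without library 1. *Smad7* (ENSMUSG00000025880, chr18:75367529-75395935, plus strand), the inhibitory SMAD, was at 10.2, 6.86, 11.0 and 13.4 CPM against 9.03, 8.52, 9.07 and 9.97 CPM. Library 5 held the lowest and library 9 the highest of the 8 values. The means were 10.4 ± 2.71 and 9.15 ± 0.604 CPM, a log2 ratio of 0.18, with a ratio of −0.040 within labelled WT and 0.36 within labelled KO. It was 0.035 without library 9 and 0.34 without library 5.

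*Ltbp2* (ENSMUSG00000002020, chr12:84783212-84876532, minus strand) belongs to the latent TGF-β binding protein family and binds fibrillin microfibrils. It was at 3.32, 2.23, 6.46 and 3.92 CPM in libraries 1, 5, 7 and 9 and at 2.49, 2.85, 1.67 and 1.56 CPM in libraries 2, 4, 6 and 8. Libraries 7 and 9, labelled KO, were the highest of these 8 and libraries 6 and 8, also labelled KO, the lowest. The means were 3.98 ± 1.79 and 2.14 ± 0.629 CPM, and the log2 ratio of 0.89 was the largest among the members with these 8 libraries. Without library 7 it was 0.56, below the 0.79 of *Acta2*. It was 1.68 within labelled KO and 0.05 within labelled WT, where the sets overlapped. The lowest count behind a value of any member was 53, for *Ltbp2* in library 8.

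*Acta2* (ENSMUSG00000035783, chr19:34241090-34255590, minus strand), the smooth muscle α-actin carried by myofibroblasts and by vessel walls, was at 388, 351, 225 and 512 CPM under 100 CPM of *Vdac2* and at 256, 245, 269 and 197 CPM over 300 CPM. Libraries 1, 5 and 9 were above the 4 libraries over 300 CPM, and library 7 was below 3 of them. The means were 369 ± 118 and 242 ± 31.5 CPM, a log2 ratio of 0.61. This ratio was 0.56 within labelled WT and 0.66 within labelled KO, 0.79 without library 7, where the sets did not overlap (beside 9.91% of the genes tested), and 0.41 without library 9. The values of other smooth muscle genes are given beside it. The contractile gene *Myh11* was at 14.4 to 18.5 CPM under 100 CPM and 16.5 to 22.3 CPM over 300 CPM, *Tagln* (transgelin) at 10.2 to 11.8 and 11.0 to 13.97 CPM, and 0 of 7 smooth muscle markers other than *Acta2* and *Pln* were higher or lower without overlap, a count near the share over all genes tested (7.16% higher and 4.93% lower). *Pdgfra* (ENSMUSG00000029231, chr5:75152292-75198215, plus strand), the platelet-derived growth factor (PDGF) receptor of fibroblasts, was at 112, 120.4, 109 and 90.0 CPM against 100.2, 106, 85.1 and 92.0 CPM. Libraries 1, 5 and 7 were above the 4 libraries over 300 CPM, and library 9 was within them. The means were 108 ± 12.8 and 95.8 ± 9.20 CPM, a log2 ratio of 0.17, and the ratio was 0.17 within each label and 0.11 without library 5. Without library 9 it was 0.25 and the sets did not overlap, beside 9.55% of the genes tested that were then higher without overlap.

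Each label held 2 libraries of each set. Within labelled WT, 4 members (*Tgfb1*, *Tgfbr2*, *Acta2* and *Pdgfra*) were higher without overlap in libraries 1 and 5 than in libraries 2 and 4, beside 24.5% of the genes tested. Within labelled KO, 5 members (*Tgfb2*, *Tgfb3*, *Tgfbr2*, *Smad7* and *Ltbp2*) were higher in libraries 7 and 9 than in libraries 6 and 8, beside 20.7%. *Tgfbr2* was on both lists, and whether the other members differ between labels in this respect was not tested.

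**Figure D2:**
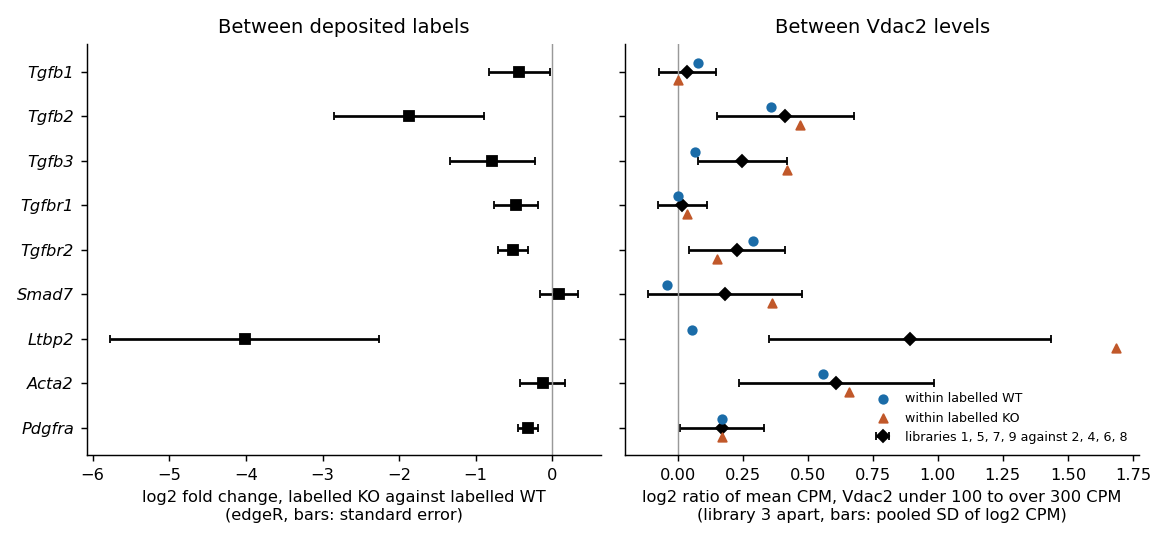
Left, log2 fold change between labelled KO and labelled WT with its standard error (edgeR, 9 libraries); right, log2 ratio of mean CPM between the Vdac2 sets (diamonds, with the pooled SD of log2 CPM) and within each label (circles and triangles). On the right the pooled ratios run from 0.019 to 0.89, and on the left 8 of 9 fold changes are below 0.

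Between the deposited labels, 0 of 9 members passed an adjusted p of 0.05 in edgeR's quasi-likelihood test (4 libraries labelled KO against 5 labelled WT), beside 0.0551% of the genes tested (9 of 16322). At an unadjusted p under 0.05 there were 3 members (*Tgfbr2*, *Ltbp2* and *Pdgfra*) and 997 tested genes, and DESeq2 and limma with library quality weights also called 0 members. Of the cell markers, 5 of 6 epicardial, 5 of 9 macrophage, 2 of 11 fibroblast (*Pdgfra* itself and *Ddr2*) and 1 of 4 atrial markers tested (*Myl7*) had an unadjusted p under 0.05, each lower in labelled KO, and 0 of them passed the adjusted p. The epicardial markers summed to 6.56 to 14.8 CPM in labelled KO, 10.3 to 34.2 CPM in labelled WT without library 3 and 31.4 CPM in library 3, and the macrophage markers to 300.4 to 444, 410.2 to 628 and 1140 CPM. Their part in the members' fold changes was not tested. The fitted log2 fold change was below 0 for 8 members, running from −4.02 (SE 1.76) for *Ltbp2* and −1.87 (SE 0.98) for *Tgfb2* to −0.13 (SE 0.30) for *Acta2*. *Smad7* was at 0.08 (SE 0.25). The members' edgeR adjusted p-values ran from 0.679 to 0.905. Library 3 set the sign for several members. Without it the log2 fold change was 0.12 for *Tgfb1*, 0.08 for *Tgfb2*, 0.08 for *Tgfb3* and 0.32 for *Ltbp2*, and it stayed below 0 for *Tgfbr1* (−0.12), *Tgfbr2* (−0.31), *Acta2* (−0.05) and *Pdgfra* (−0.23) and was 0.32 for *Smad7*, with 0 members called.

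Library 3 stood above the other libraries for most members. It was at 16.0 CPM for *Tgfb1*, 130.3 CPM for *Tgfb2* and 70.7 CPM for *Tgfb3*, which is 3.22, 16.7 and 5.15 times the median of the other 8 libraries. *Tgfb2* thus passed *Tgfb3* per kilobase of exon in this library, at 22.5 against 20.9 CPM per kb. The receptors were at 110.7 CPM for *Tgfbr1* and 101.4 CPM for *Tgfbr2*, 2.52 and 2.01 times that median, and *Smad7* was at 16.6 CPM, 1.75 times it. *Ltbp2*, the least abundant member elsewhere, was at 265.2 CPM, 99.3 times the median and 41.1 times the highest of the other 8 libraries, and at 32.4 CPM per kb was second to *Acta2* in this library. *Acta2* and *Pdgfra* moved least. *Acta2* was at 402 CPM, within the range of the other libraries, and *Pdgfra* at 149 CPM, 1.24 times the highest of them.

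More than 2-fold above the highest of the other 8 libraries were 5 of 9 members (*Tgfb1*, *Tgfb2*, *Tgfb3*, *Tgfbr1* and *Ltbp2*), beside 10.9% of the genes tested, and 0 of 9 were more than 2-fold below the lowest, beside 11.3%. Above the highest at all were 8 of 9 members and 37.7% of the genes tested. Markers of other cells moved with this library. All 6 proliferation markers were more than 2-fold above (summed level 519 CPM against 19.6 to 48.5 CPM), 4 of 9 macrophage markers were above (1140 against 300.4 to 628 CPM) and 7 of 8 cardiomyocyte markers were below. Of the 11 fibroblast markers 2 were above and 2 were below, with a summed level of 2057 CPM against 2248 to 3080 CPM. That sum depends on *Gsn*, the most abundant of them, which was at 252 CPM against 1199 to 1507 CPM. *Col1a1*, 1 of the 2 above, was at 691 CPM against 15.5 to 57.0 CPM, so the sum does not give a common direction of these markers. Of the markers of cells around vessels, 1 of 7 pericyte markers was above and 4 were below (629 against 1451 to 1975 CPM), 0 of 8 endothelial markers were above and 1 was below (493 against 680 to 982 CPM), and of 7 smooth muscle markers other than *Acta2* and *Pln* 2 were above and 1 was below (167 against 89.7 to 121 CPM). *Pln* (phospholamban), which cardiac myocytes also express, was at 1203 CPM against 7124 to 9020 CPM. The most abundant pericyte markers, *Rgs5* and *Abcc9*, were at 276 and 120 CPM against 733 to 1059 and 594 to 848 CPM. *Pdgfrb*, *Cspg4* and *Notch3* of the same list were above the highest of the other 8 libraries, at 104, 73.9 and 28.4 CPM, so the pericyte sum gives no common direction. Of 6 epicardial markers 2 were above and 0 below, and of 4 atrial markers 1 was above and 1 below. Their part in the levels of the members was not tested. The study states that 1 WT sample was removed for RNA quality without naming it, so library 3 is given here as deposited.

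**Figure D3:**
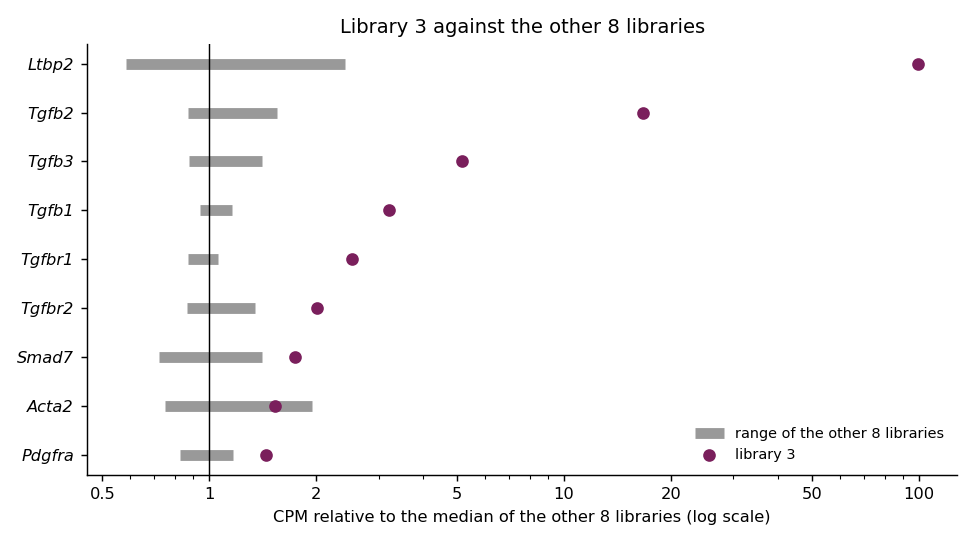
CPM of library 3 (points) divided by the median of the other 8 libraries, on a log scale, with the range of those 8 libraries as grey bars. Ltbp2 lies at 99.3 and Tgfb2 at 16.7 times the median, and Acta2 lies inside the range of the other libraries.

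The other genes of the pathway were described through 7 lists with 114 genes besides the members, of which 106 were tested. Between the *Vdac2* sets, 24 of the 106 (22.6%) were higher without overlap in the libraries under 100 CPM and 3 were lower, beside 7.16% and 4.93% of all genes tested. Of the 11 receptors and co-receptors, 0 were higher and 0 lower without overlap (median log2 ratio 0.023), a count near the shares over all genes tested. The type II receptor *Bmpr2* had a mean of 205 ± 26.6 CPM against 197 ± 14.6 CPM, the type I receptor *Bmpr1a* 160 ± 11.1 against 160 ± 8.27 CPM, the co-receptor *Tgfbr3* (betaglycan) 77.0 ± 13.2 against 72.1 ± 7.68 CPM, and *Fkbp1a*, whose product binds the type I receptor, 42.2 ± 2.45 against 41.8 ± 2.97 CPM. Of 18 SMADs and SMAD partners tested, 1 was higher (the corepressor *Tgif1*, 1.3 times) and 1 lower (*Smad5*, which signals for bone morphogenetic proteins, 0.904 times). Both counts also lie near the shares over all genes tested.

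Genes for storing and activating the ligands were partly higher. Of 18, 4 were higher without overlap under 100 CPM: *Thbs1* (thrombospondin, an activator of latent TGF-β, 1.80 times), *Fbn1* (fibrillin, the microfibril protein, 1.49 times), *Emilin1* (an elastic fibre glycoprotein, 1.20 times) and *Bgn* (biglycan, 1.28 times). *Itgb6*, a subunit of an activating integrin, was lower (0.676 times). Over all genes tested, 7.16% were higher without overlap and 4.93% lower, so 1 lower of 18 lies near that share. *Fbn1*, on which LTBP proteins are laid down, was at 267, 306, 278 and 239 CPM in libraries 1, 5, 7 and 9 and at 181, 217, 184 and 147 CPM in libraries 2, 4, 6 and 8, and the proteoglycan gene *Dcn* (decorin) overlapped at 838 ± 102 against 691 ± 125 CPM. Of 16 other ligands and ligand-binding proteins of the superfamily tested, 4 were higher (*Inhba* 1.48, *Gdf15* 5.50, *Fstl1* 1.56 and *Fstl3* 1.76 times), beside the same 7.16%. The 0 that were lower lie near the 4.93%. Of 6 other PDGF ligands and receptors, 0 were higher and *Pdgfd* was lower (0.865 times). In a list of 6 genes, these counts cannot be set apart from the shares over all genes tested.

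The target genes divided. Of 18, 5 were higher without overlap under 100 CPM (*Ccn2* 3.18, *Tgfbi* 1.44, *Timp1* 7.36, *Lox* 2.97 and *Tgif1* 1.3 times), beside 7.16% of all genes tested. The 0 that were lower lie near the 4.93% of all genes tested, and the median log2 ratio of the list was 0.016. *Ccn2*, connective tissue growth factor, was at 180, 61.2, 100.1 and 232 CPM in libraries 1, 5, 7 and 9 and at 36.5, 46.2, 47.1 and 50.9 CPM in libraries 2, 4, 6 and 8. Its values under 100 CPM differed among themselves more than those over 300 CPM. *Lox*, the collagen cross-linking enzyme, was at 11.8, 9.34, 10.9 and 14.3 CPM against 4.79, 6.43, 2.36 and 2.03 CPM. The 2 sets of *Lox* values did not meet. *Ltbp1* was at 74.9 ± 7.76 against 77.5 ± 5.67 CPM.

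Among the lists of the pathway, the largest count belonged to activated fibroblast and myofibroblast genes. Of 25, 12 were higher without overlap under 100 CPM, beside 7.16% of all genes tested. The 0 that were lower lie near the 4.93% of all genes tested, and the median log2 ratio was 0.53. *Col3a1*, a fibrillar collagen, was at 656, 673, 778 and 746 CPM in libraries 1, 5, 7 and 9 and at 384, 415, 437 and 318 CPM in libraries 2, 4, 6 and 8. *Postn*, the matricellular protein of activated fibroblasts, was at 124, 124, 182 and 316 CPM against 76.2, 97.0, 85.8 and 59.4 CPM. Both genes were thus higher in each of the 4 libraries under 100 CPM, *Postn* with the widest spread in that set. *Sparc*, a collagen-binding protein, was at 222 ± 16.8 against 178 ± 21.05 CPM, and *Col1a2*, a chain of type I collagen, at 128 ± 17.5 against 83.1 ± 10.5 CPM. The lists share *Lox*, *Tgif1* and some other genes, so their counts are not independent.

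Markers of other cells also moved with the sets. Without overlap, 3 of 11 fibroblast markers (a list that includes *Pdgfra*), 5 of 9 macrophage markers, 5 of 6 proliferation markers and 2 of 4 atrial markers (*Nppa* 9.15 and *Myl4* 1.31 times) were higher under 100 CPM, and 2 of 8 cardiomyocyte, 2 of 8 endothelial and 1 of 7 pericyte markers were lower, beside 7.16% of all genes tested higher and 4.93% lower. On the atrial list, *Myl7* (1.32 times) and *Myh6* (0.796 times, also on the cardiomyocyte list) overlapped between the sets. The paper counts raised *Nppa* among the hallmarks of dilated cardiomyopathy, so it does not mark atrial cells alone. The summed level of the macrophage markers was 439 to 628 CPM under 100 CPM of *Vdac2* and 300.4 to 415 CPM over 300 CPM, that of the fibroblast markers 2772 to 3080 against 2248 to 2837 CPM, and that of the cardiomyocyte markers 43807 to 50049 against 51393 to 60673 CPM. Their part in the values of the pathway genes was not tested. Between the labels, edgeR's adjusted p was under 0.05 for 0 of the 106 pathway genes, beside 0.0551% of all genes tested, and the unadjusted p was under 0.05 for 8 of them, a share near that of all genes tested (997 of 16322).

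**Figure D4:**
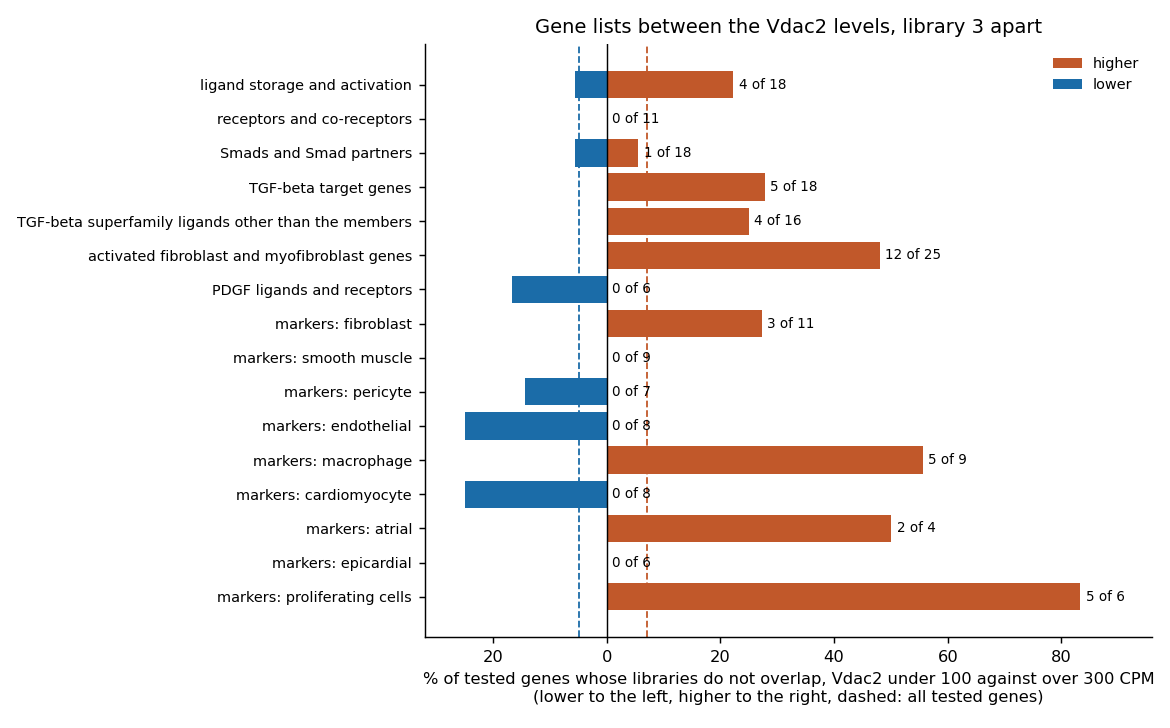
Share of the tested genes of each list whose libraries do not overlap between the Vdac2 sets, higher to the right and lower to the left, with the number of higher genes beside each bar and dashed lines at the share over all tested genes (7.16% and 4.93%). The bar of activated fibroblast and myofibroblast genes stands for 12 of 25, that of the receptors for 0 of 11, near the share over all tested genes.

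Library 3 was far above the others in several of these lists. More than 2-fold above the highest of the other 8 libraries were 22 of 25 myofibroblast genes (median ratio to the median of the others 9.68), 11 of 18 storage and activation genes (3.02) and 10 of 18 target genes (4.45), against 1 of 11 receptors (1.17) and 3 of 18 SMADs and partners (1.25), which lie near the 10.9% of all genes tested. *Ccn2* was at 1142 CPM in this library. *Tagln*, which did not separate the sets, was at 84.3 CPM, while the smooth muscle myosin *Myh11* was at 11.7 CPM, below the other 8 libraries.

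**Figure D5:**
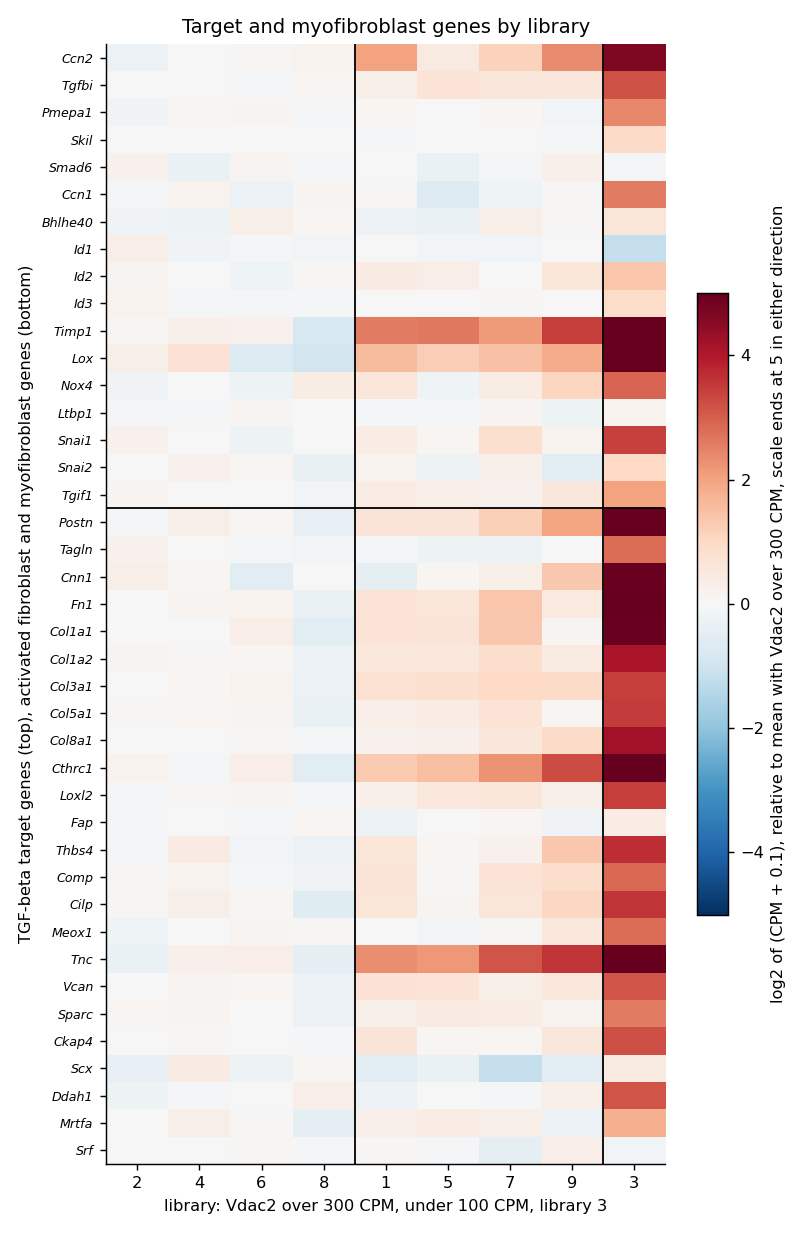
log2 of CPM + 0.1 for target genes (top block, with Lox) and activated fibroblast and myofibroblast genes (bottom block), relative to the mean of the libraries with Vdac2 over 300 CPM, by library, 1 target gene left out. Timp1, Ccn2, Lox and Postn are higher in each of libraries 1, 5, 7 and 9, Tagln is not, and library 3 is more than 2-fold above the highest other library for 22 of the 25 myofibroblast genes.

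The genes with the pattern most like each member were taken by Pearson correlation of log2 (CPM + 0.5) over the 8 libraries other than library 3, as a description that shares libraries and depth. For *Tgfbr2* they were *Eif3a* (r = 0.989) and *Gfpt2* (r = 0.984), and *Pdgfra* was near *Cdon* (r = 0.984). Over all 9 libraries, which add only library 3 to the same 8, r was 0.951, 0.972 and 0.990 for these 3. For *Ltbp2* they were *Opn3* (r = 0.937) and *Gpr176* (r = 0.919), with r = 0.969 and 0.995 over 9 libraries. For *Acta2* they were *Fam162a* (r = 0.985) and *Spsb4* (r = 0.979), at r = 0.268 and 0.876 over 9. Those of *Tgfb2*, *Focad* (r = 0.989) and *Abca5* (r = 0.972), were at r = −0.834 and 0.283 over 9. *Tgfb1* was nearest to *Sart3* (r = 0.963) and *Cspg5* (r = 0.959), at r = 0.778 and −0.118 over 9. *Tgfb3* was nearest to *Rhof* (r = 0.975) and *Nefl* (r = 0.964), at r = 0.777 and 0.159 over 9. *Tgfbr1* was nearest to *Gm11633* (r = 0.992) and *Gm38278* (r = 0.976), at r = −0.335 and −0.622 over 9. *Smad7* was nearest to *Ilvbl* (r = 0.969) and *Gnptab* (r = 0.965), at r = 0.347 and 0.942 over 9.

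Among the members themselves, the closest pairs over the 8 libraries were *Tgfb3* with *Acta2* (r = 0.843), *Tgfbr2* with *Pdgfra* (r = 0.784) and *Tgfb2* with *Smad7* (r = 0.774), and *Tgfb1* and *Tgfbr1* ran opposite to each other (r = −0.822). With library 3 included, *Tgfb2* with *Tgfb3* was at r = 0.981 and *Tgfb1* with *Tgfbr1* at r = 0.946, against 0.636 and −0.822 over the 8 libraries.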

How the data were processed

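Raw counts of reads per Ensembl gene for 9 libraries were deposited by the authors in 1 table, without normalization. Ribosomal RNA was removed and stranded single-end libraries were sequenced. The submitters' processing notes name GRCm38, STAR 2.7.2c, featureCounts 1.6.3 and DESeq2, while how strand and multiply aligned reads were counted, and on which annotation release, is not given in the sources used here. Symbols and coordinates are from GENCODE M21, whose gene models on the opposite strand overlap exons of *Tgfb2*, *Tgfb3*, *Ltbp2* and *Pdgfra* in part. The columns were matched to samples by library number, and the labels give no animal, so p-values measure the spread between these libraries.

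The members, the lists and the *Vdac2* limits were chosen with earlier results of these data known. Labels were compared with edgeR 4.0.16 in R 4.3.3 (filterByExpr, TMM, robust quasi-likelihood test, Benjamini-Hochberg adjustment over 16322 genes). SE is |log2 fold change|/√F. The *Vdac2* sets were compared by means of CPM and by whether libraries overlap, without a test. Named genes were the members, the 4 genes of highest mean CPM in a list as examples, the genes of a count of 5 or fewer, and the 2 genes most alike to each member; *Myh11* and *Tagln* are among the 4 of the smooth muscle markers. Some genes that this rule names are not reported here. Alternatives were DESeq2 1.42.0, limma 3.58.1 (voom with quality weights), other factors and filters, each library left out, each label alone, and library 3 added. The script was tested on simulated data. Floors cover counting error only.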

Additional observations from a re-analysis of the deposited data

Results flagged for a closer look

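In the libraries labelled WT, library 3 lay farther from its nearest neighbour than Dixon's 95% critical value for 5 samples allows for 5 of the 9 members. Its values were 16.0 CPM for *Tgfb1*, 130.3 CPM for *Tgfb2*, 70.7 CPM for *Tgfb3*, 110.7 CPM for *Tgfbr1* and 265.2 CPM for *Ltbp2*, and chance gives such a gap in about 1 of 20 groups. Of all 16322 genes tested, 22.6% had library 3 as such a high value and 10.3% as such a low value, so the gap is common in this library. The 5 values come from 1 library and are not independent. The same library held 10185 CPM in 8 cardiomyocyte markers and 519 CPM in 6 proliferation markers, and the part of these in the members' levels was not tested.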

How the results depend on the processing

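Between the labels, 9 genes were called by edgeR, 70 by DESeq2, 79 by limma with quality weights, 0 with at least 10 counts in every library, and 5 to 62 when 1 library was left out (62 without library 3, 5 without library 1, 2 or 4). The cause of these shifts was not tested. Over 135 fits of the members, adjusted p ran from 0.187 to 0.994 and 0 were called; DESeq2 gave no adjusted p for *Tgfb2*, *Tgfb3* and *Ltbp2*. The log2 fold change changed sign in 9 of these fits. With quality weights it was 0.099 for *Tgfb1* and 0.041 for *Tgfb2*. With 1 library left out it ran from −0.55 to 0.12 for *Tgfb1*, −2.14 to 0.082 for *Tgfb2*, −0.95 to 0.082 for *Tgfb3* and −4.52 to 0.32 for *Ltbp2*, each positive without library 3, from −0.037 to 0.32 for *Smad7* (negative without library 5 or 9) and from −0.51 to 0.031 for *Acta2* (positive without library 8).

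Between the *Vdac2* sets, 0 members were free of overlap, 1 under upper-quartile factors or library totals (*Tgfb3*; 7.73% and 11.3% of all genes tested were then higher without overlap), 4 within labelled WT (24.5%), 5 within labelled KO (20.7%), and 0 to 4 with 1 library left out (4 without library 5, *Tgfb2*, *Tgfb3*, *Smad7* and *Ltbp2*, beside 9.44%). Leaving out a library raised that share from 7.16% to 8.77 to 9.91%, since fewer libraries need to separate. Adding library 3 to the set under 100 CPM moved the log2 ratio of 6 members by more than the spread between libraries, to 0.55 for *Tgfb1*, 2.19 for *Tgfb2*, 1.03 for *Tgfb3*, 0.40 for *Tgfbr1*, 0.44 for *Tgfbr2* and 4.71 for *Ltbp2*. No paired analysis was possible because the labels give no litter or animal. The members' counts ran from 53 (*Ltbp2*, library 8) to 22165 (*Acta2*, library 9), and the effect of depth was not tested.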
